A study of Homo sapiens with 12 samples.

Results

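MYCN and 9 further genes of the MAX network were followed: MYC and MYCL, the common partner MAX, the repressors MXD1, MXI1, MXD3, MXD4 and MNT, and the related factor MLX. Their members were every probe set (a group of short probes that reads 1 stretch of transcript) that names exactly 1 gene in the platform annotation, where that gene is one of these 10. That gave 44 of 44988 probe sets and 10 of 18132 genes. MAX had 12 probe sets, MLX 6, MXI1 and MXD4 5 each, MYCN and MYCL 4 each, MXD3 3, MXD1 and MNT 2 each, and MYC 1. Another 2 probe sets name MXD3 together with RAB24 and were left out.

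The RNA came from cultures of BE(2)-C and Kelly, human neuroblastoma cell lines that both carry amplified MYCN, so every group has the amplification, the vehicle controls included. Cells had received 1 µM JQ1, a small-molecule inhibitor of the BET family of acetyl-lysine readers, or its solvent DMSO, for 24 h. The 4 groups were BE(2)-C with JQ1, BE(2)-C with DMSO, Kelly with JQ1 and Kelly with DMSO, with 3 Affymetrix PrimeView arrays each, 12 in all. The series asks whether MYCN can be targeted in neuroblastoma through BET bromodomains. Each treatment was done in triplicate. Nothing says that the triplicates were separate cultures, so the spread behind every p-value is that between these arrays and may be only technical.

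Levels are log2 of the deposited intensity of a probe set, and a gene's level is the mean over its probe sets. The brightness of a probe set depends on its probes, so levels of different probe sets or genes are not set against each other. The 12 array medians lay between 61.4 and 67.3 on the linear scale, and arrays of 1 group correlated at 0.951 to 0.995. As a check of the treatment labels, HEXIM1, a gene known to respond to BET inhibition, was higher with JQ1 by 2.24 in BE(2)-C and by 1.80 in Kelly (log2 fold change, limma adjusted p = 3.46e-05 and 8.73e-05). Cell type markers are given as a description. The 3 leukocyte markers measured averaged 4.05 (PTPRC) to 5.19 (CD3E), and the 4 epithelial ones 4.18 (CDH1) to 7.02 (KRT19). The 3 fibroblast or Schwann markers measured averaged 4.82 (COL3A1) to 7.03 (PDGFRB). Of 7 sympathetic neuroblastoma markers 6 were measured, with averages from 8.46 (TH) to 12.95 (HAND2). The mean of the 6 was 10.36 to 10.46 in BE(2)-C with JQ1, against 10.65 to 10.76 with DMSO, and 10.73 to 10.80 in Kelly with JQ1, against 11.08 to 11.27 with DMSO, and its part in the results was not tested. The mean log2 signal of 9 hybridization control sets, bacterial transcripts added to every sample, ran between 9.94 and 13.65. It was 11.19, 10.33 and 12.70 in BE(2)-C with JQ1, against 12.92, 10.74 and 9.94 with DMSO, and 12.27, 12.89 and 13.65 in Kelly with JQ1, against 11.74, 10.70 and 13.26 with DMSO. Within groups, the slope on this signal passed the threshold in 49.6% of all probe sets and in 19 of the 44 followed here, 10 of them negative and 9 positive. The part of the control signal in the results below was not tested beyond the fits that include it or leave out the 3 arrays where it was highest (replicate 3 of both Kelly groups and replicate 1 of BE(2)-C with DMSO).

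MYC family proteins are transcription factors of the basic helix-loop-helix leucine zipper class that bind DNA as pairs with MAX, at the E-box CACGTG, and mostly raise transcription there. The MXD proteins and MNT pair with MAX too and recruit repressor complexes to the same sites, so the network holds activators and repressors that share a partner. MLX is a second hub, which pairs with MLXIP and MLXIPL in the response of cells to glucose, and also with some MXD proteins and MNT. In neuroblastoma MYCN takes the place that MYC has in many other tumours, and its amplification marks high-risk disease.

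Promoter windows were read for the letters of the site the network binds. RefSeq windows (GRCh38.p14) of the 250 bases before the annotated start were searched for 9 of the 10 genes, in 12 windows. MYC was left out of this search. The E-box, CACGTG on either strand, was found in 3 of the 12 windows, those of MXD4, MNT and MLX, against 2228 of 35116 windows of all genes (6.34%). The spellings TTTCCCGC, TTTCGCGC, TTTGCCGC and TTTGGCGC of the E2F site were searched on both strands, and 979 of all windows held one (2.79%). Among these genes only the MYCN window did, with 2 overlapping matches, 1 on each strand. A match is a stretch of letters and was not tested for binding here. The full windows of MYCN, at chr2:15940300-15940549 (plus strand), and of MXD4, at chr4:2262110-2262359 (minus strand), are shown because these are the members whose transcript moved with JQ1. Capitals mark the E2F spellings in MYCN, which start 176 and 172 bases before the start of transcription, and the E-box in MXD4, 238 bases before it.
MYCN: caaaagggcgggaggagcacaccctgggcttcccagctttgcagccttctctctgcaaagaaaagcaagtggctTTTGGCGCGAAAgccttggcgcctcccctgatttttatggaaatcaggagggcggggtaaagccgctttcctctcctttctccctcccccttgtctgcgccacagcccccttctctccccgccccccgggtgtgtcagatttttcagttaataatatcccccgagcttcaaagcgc
MXD4: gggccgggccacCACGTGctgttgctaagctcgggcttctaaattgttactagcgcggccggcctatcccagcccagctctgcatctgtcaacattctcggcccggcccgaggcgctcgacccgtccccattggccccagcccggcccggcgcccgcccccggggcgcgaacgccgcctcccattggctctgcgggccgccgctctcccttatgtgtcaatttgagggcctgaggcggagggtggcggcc
The E-boxes of MNT, at chr17:2401236-2401265 (minus strand), and of MLX, at chr17:42567038-42567067 (plus strand), are shown in 30-base windows, with the E-box in capitals. They begin 193 and 50 bases before the start.
MNT: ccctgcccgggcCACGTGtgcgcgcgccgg
MLX: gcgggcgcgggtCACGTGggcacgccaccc

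With JQ1 in BE(2)-C, 3 of the 44 probe sets passed the threshold of 0.05 on the limma p adjusted over all probe sets, against 2.81% of all probe sets. They were 2 of MYCN, which fell, and 1 of MXD4, which rose, where 1.56% of all probe sets were called lower and 1.25% higher. In Kelly 0 of 44 passed in limma's test, against 4.35% of all. Averaged over the lines 6 passed, 3 lower, all of MYCN, and 3 higher, all of MXD4, against 7.53% of all probe sets (5.07% lower and 2.47% higher). The median log2 fold change of the 44 was −0.066 in BE(2)-C and −0.053 in Kelly, against −0.009 and 0.052 over all probe sets. By gene, 2 of 10 passed in BE(2)-C (4.55% of all genes), MYCN and MXD4, 1 of 10 in Kelly (5.7% of all genes), MYCN, and 2 of 10 on average (10.1% of all genes), again MYCN and MXD4. With the called sets included, all 3 JQ1 arrays lay above all 3 DMSO arrays in 5 of the 44 in BE(2)-C and below them in 8. Over all probe sets the shares were 9.9% and 9.29%. The corresponding numbers in Kelly were 3 above and 8 below, against 10.8% and 10.9% of all probe sets.

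**Figure D1:**
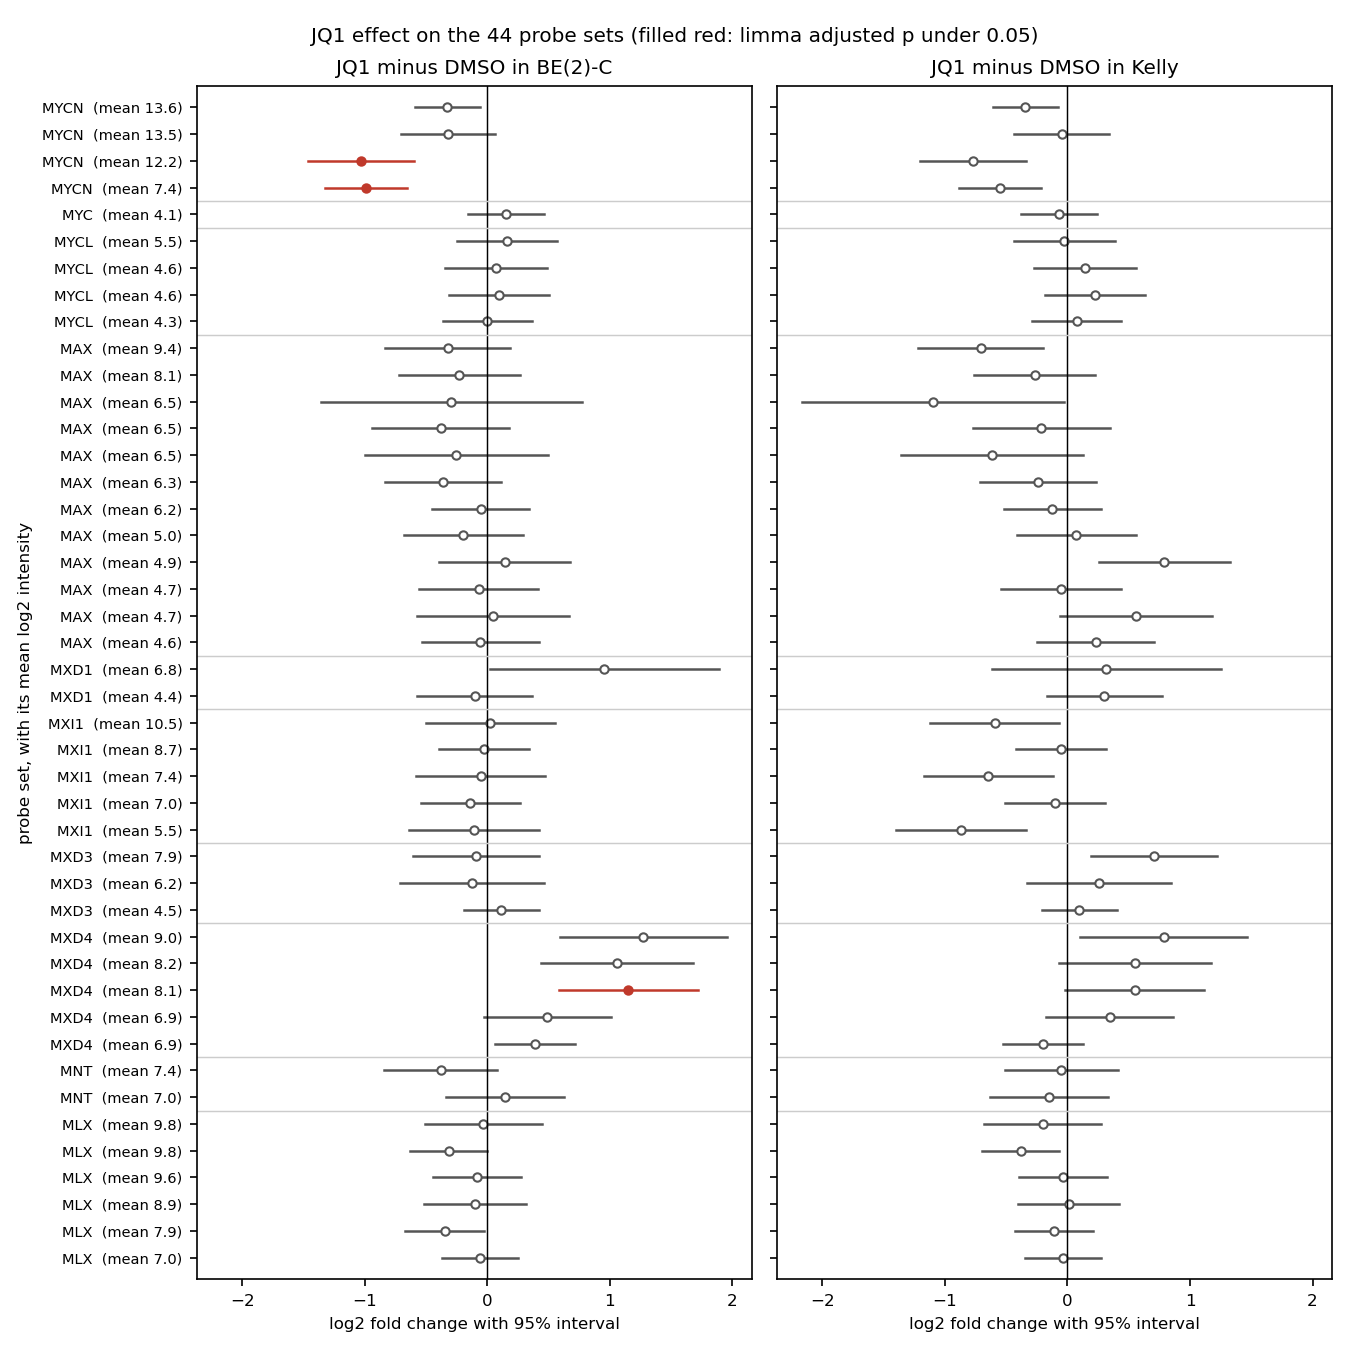
Log2 fold change with JQ1 (JQ1 minus DMSO, horizontal axis) of the 44 probe sets, with 95% intervals, in BE(2)-C (left) and Kelly (right), ordered by gene and then by mean log2 intensity. Filled red points passed the limma threshold, which are 2 MYCN sets and 1 MXD4 set in BE(2)-C and no set in Kelly.

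MYCN, the amplified activator of these cells, had less transcript with JQ1 in both lines. Its mean over 4 probe sets was 11.18, 11.13 and 11.14 in BE(2)-C with JQ1, against 11.82, 11.89 and 11.75 with DMSO. In Kelly it was 11.60, 11.53 and 11.63 with JQ1, against 12.05, 12.04 and 11.96 with DMSO. In each line every JQ1 array lay below every DMSO array, and the order of the group means from the top was Kelly with DMSO (12.02 ± 0.0472), BE(2)-C with DMSO (11.82 ± 0.0702), Kelly with JQ1 (11.59 ± 0.052) and BE(2)-C with JQ1 (11.15 ± 0.0254; SD, n = 3 each). Neighbours in that order did not share a range, but the pair of DMSO groups was not called different (BE(2)-C minus Kelly −0.20 on the log2 scale, 95% interval −0.43 to 0.03, limma adjusted p = 0.291). MYCN fell 1.59-fold in BE(2)-C (log2 fold change −0.67 with SE 0.10 and 95% interval −0.90 to −0.44, limma adjusted p = 0.00386). It fell 1.34-fold in Kelly (−0.43, SE 0.10, −0.65 to −0.20, limma adjusted p = 0.0333). In bulk RNA, fewer cells with the transcript and less transcript per cell cannot be told apart.

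The average over the lines was −0.55 (SE 0.07, limma adjusted p = 0.000564), and it passed in all 20 alternatives run. The fall was not shown to be larger in BE(2)-C than in Kelly (difference of the log2 fold changes −0.24, 95% interval −0.56 to 0.08, limma adjusted p = 0.546). The Kelly call was lost in 11 of 21 alternatives. Its limma adjusted p was 0.0778 with the replicate number as a block, 0.178 with the Kelly arrays alone and 0.136 with the brightest probe set in place of the mean. With 1 Kelly array left out it was 0.0706 (JQ1 replicate 1), 0.113 (JQ1 replicate 2), 0.141 (DMSO replicate 1) and 0.116 (DMSO replicate 2). With 1 BE(2)-C array left out, which enters through the shared spread, it was 0.0655, 0.0616 and 0.0511 (JQ1 replicates 1, 2 and 3) and 0.0581 (DMSO replicate 2). In BE(2)-C the call held in 20 of 21 alternatives and was lost with the brightest probe set (limma adjusted p = 0.209).

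The 4 MYCN probe sets differed in how far they moved. Probe set 11750948_a_at read 11.34, 11.48 and 11.45 in BE(2)-C with JQ1, against 12.09, 12.66 and 12.62 with DMSO. In Kelly it read 12.07, 11.96 and 11.90 with JQ1, against 12.79, 13.07 and 12.38 with DMSO. The JQ1 arrays were the lower ones in both lines, by 2.04-fold in BE(2)-C (log2 fold change −1.03 with SE 0.20, limma adjusted p = 0.0167) and by −0.77 on the log2 scale in Kelly, which did not pass (limma adjusted p = 0.0511). The Kelly value lay close to the threshold and passed in 9 of 20 alternatives, the replicate block (0.0466), the fit without Kelly DMSO replicate 3 (0.0129) and the fit without BE(2)-C DMSO replicate 1 (0.0235) among them. Its BE(2)-C call was lost without any one of the JQ1 arrays of that line (limma adjusted p = 0.0906, 0.066 and 0.0584 for replicates 1, 2 and 3) and without its DMSO replicate 2 or 3 (0.0909 and 0.0699).

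The dimmest MYCN set, 11719868_a_at, read 6.85, 6.74 and 6.93 in BE(2)-C with JQ1, against 7.88, 8.01 and 7.61 with DMSO. Its Kelly values were 7.17, 7.20 and 7.29 with JQ1, against 7.98, 7.70 and 7.62 with DMSO. These groups did not overlap in either line. The fall in BE(2)-C was 1.99-fold (log2 fold change −0.99 with SE 0.15, limma adjusted p = 0.00491) and was kept in all 20 alternatives run, while the Kelly difference of −0.55 (SE 0.15) did not pass (limma adjusted p = 0.0702). That Kelly difference did pass with log2(value + 16) (0.0426) and with the control signal as covariate (0.0244). It also passed without Kelly DMSO replicate 3 (0.0424) and without the 3 arrays of highest control signal (0.0234).

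The pair of brightest MYCN sets, which stand at percentiles 99.8 and 99.7 of all probe sets by mean level, moved less. Probe set 11719870_s_at read 13.31, 13.16 and 13.23 in BE(2)-C with JQ1, against 13.64, 13.53 and 13.52 with DMSO, and 13.58, 13.47 and 13.55 in Kelly with JQ1, against 13.87, 13.88 and 13.87 with DMSO. The groups did not overlap in either line, and the differences of −0.33 and −0.34 on the log2 scale did not pass within a line (limma adjusted p = 0.238 and 0.146). Their average did (−0.34, limma adjusted p = 0.0336), but it was lost in 11 of 19 alternatives, the replicate block among them (0.0863). Probe set 11719869_a_at read 13.20, 13.12 and 12.96 in BE(2)-C with JQ1, against 13.66, 13.35 and 13.24 with DMSO. In Kelly it read 13.58, 13.50 and 13.80 with JQ1, against 13.54, 13.50 and 13.98 with DMSO. Those Kelly groups overlapped, and neither line passed (−0.32 and −0.05 on the log2 scale, limma adjusted p = 0.562 and 0.891). How near these bright sets were to the top of the arrays' range was not tested.

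**Figure D2:**
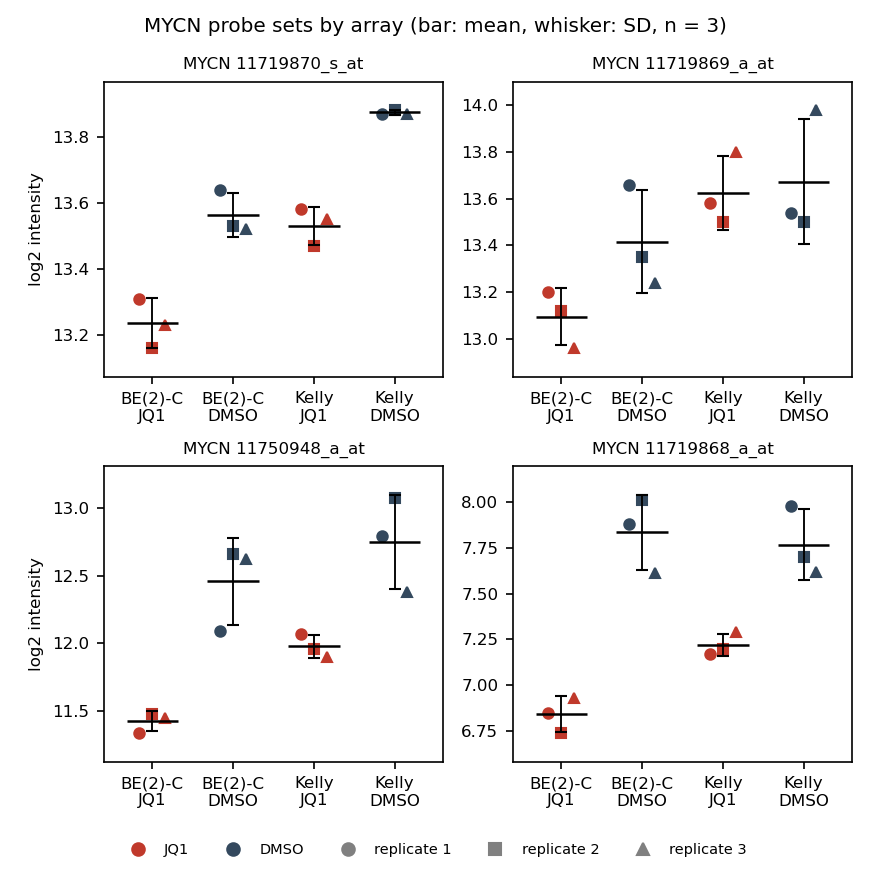
Log2 intensity (vertical axis, scaled to each panel) of the 4 MYCN probe sets on each of the 12 arrays, by group, with the replicate number as symbol, a bar at the mean and a whisker for the SD (n = 3). JQ1 arrays lie below DMSO arrays of the same line in every panel except for Kelly in 11719869_a_at, where the groups overlap.

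The other activators were near the floor of the arrays. MYC, which takes the part of MYCN in many tissues, has 1 probe set, which averaged 4.06, the 8.06 percentile of all probe sets, and lay above the median of 23 background sets on 5 of 12 arrays. It read 4.31, 4.29 and 4.06 in BE(2)-C with JQ1, against 4.09, 4.11 and 4.00 with DMSO, and 4.05, 3.78 and 3.99 in Kelly with JQ1, against 3.93, 3.95 and 4.16 with DMSO. The groups overlapped in both lines, with limma adjusted p = 0.926 in BE(2)-C and 0.796 in Kelly, so no MYC transcript change was detectable at this signal. MYCL, the third activator, known from small-cell lung cancer, had 4 sets with means of 4.27 to 5.46. None was called, with log2 fold changes of −0.00 to 0.16 in BE(2)-C and −0.02 to 0.23 in Kelly.

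MAX, the partner that both activators and repressors need, was not called in either line. Its mean over 12 probe sets was 6.14, 6.27 and 6.01 in BE(2)-C with JQ1, against 6.16, 6.39 and 6.38 with DMSO. In Kelly it was 5.93, 6.01 and 5.95 with JQ1, against 6.20, 6.31 and 5.79 with DMSO. The groups overlapped, and the log2 fold changes were −0.17 in BE(2)-C (95% interval −0.49 to 0.15, limma adjusted p = 0.863) and −0.14 in Kelly (−0.46 to 0.18, limma adjusted p = 0.564). Its probe sets did not move alike in Kelly, where their log2 fold changes ran from −1.10 to 0.79, with a lowest limma adjusted p of 0.102. They ran from −0.38 to 0.14 in BE(2)-C, with a lowest limma adjusted p of 0.648.

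The brightest MAX set, 11740748_s_at, read 9.28, 9.02 and 8.40 in Kelly with JQ1, against 9.61, 9.81 and 9.40 with DMSO, and 9.51, 9.54 and 9.03 in BE(2)-C with JQ1, against 9.43, 9.76 and 9.86 with DMSO. The Kelly groups did not overlap (−0.71 on the log2 scale, limma adjusted p = 0.123), and the BE(2)-C groups did (−0.32, limma adjusted p = 0.8). The dim set 11762234_a_at went the other way in Kelly, with 5.03, 5.33 and 6.11 with JQ1, against 4.85, 4.67 and 4.58 with DMSO (0.79 on the log2 scale, limma adjusted p = 0.102). The widest difference belonged to 11729190_a_at, with 6.17, 5.49 and 4.96 in Kelly with JQ1, against 7.02, 7.37 and 5.51 with DMSO (−1.10, limma adjusted p = 0.238). Its groups overlapped, and its level fell by 0.55 for each log2 unit of the control signal within groups. Without Kelly DMSO replicate 3 this set was called in Kelly (−1.66, limma adjusted p = 0.0362), and 11762234_a_at was called without Kelly JQ1 replicate 1 (1.02, limma adjusted p = 0.0458). Without the 3 arrays of highest control signal the MAX gene mean passed on average (−0.26, limma adjusted p = 0.0296).

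MXD4, a repressor that competes with MYC proteins for MAX and is known from differentiating and resting cells, rose with JQ1 in BE(2)-C. Its mean over 5 probe sets was 8.44, 8.21 and 8.79 in BE(2)-C with JQ1, against 7.99, 7.48 and 7.36 with DMSO. In Kelly it was 7.91, 7.85 and 7.51 with JQ1, against 7.40, 7.01 and 7.65 with DMSO. The BE(2)-C groups did not overlap and the Kelly groups did. The rise in BE(2)-C was 1.83-fold (log2 fold change 0.87, SE 0.22, 95% interval 0.40 to 1.35, limma adjusted p = 0.0431). The Kelly value of 0.41 did not pass (−0.07 to 0.88, limma adjusted p = 0.291), and the lines were not shown to differ (difference 0.47, −0.21 to 1.14, limma adjusted p = 0.561). Averaged over the lines MXD4 rose 1.56-fold (0.64, SE 0.15, limma adjusted p = 0.02).

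The BE(2)-C call of MXD4 is close to the threshold and was lost in 12 of 21 alternatives, with limma adjusted p between 0.00178 and 0.165 over all 21. The replicate block gave 0.0729. Leaving out a BE(2)-C array gave 0.139, 0.0646 and 0.165 (JQ1 replicates 1, 2 and 3) and 0.164 and 0.149 (DMSO replicates 2 and 3), and leaving out a Kelly array gave 0.0589 and 0.0646 (JQ1 replicates 1 and 2) and 0.0697 (DMSO replicate 1). The average call was lost in 5 of 20 alternatives, each without 1 array. For Kelly these were JQ1 replicates 1 and 2 (0.0517 and 0.0533), and for BE(2)-C JQ1 replicate 3 (0.0546) and DMSO replicates 2 and 3 (0.0577 and 0.0529).

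The 3 brightest MXD4 sets carried the rise. Probe set 11747171_a_at read 10.18, 9.93 and 10.52 in BE(2)-C with JQ1, against 9.57, 8.75 and 8.51 with DMSO, and 8.80, 8.85 and 8.69 in Kelly with JQ1, against 7.95, 7.42 and 8.61 with DMSO. All JQ1 arrays lay above the DMSO arrays of their line. The average of 1.03 on the log2 scale passed (limma adjusted p = 0.0139) in each of 19 alternatives as well, while the lines taken singly did not (1.27 in BE(2)-C, limma adjusted p = 0.0537, and 0.79 in Kelly, 0.193). In some alternatives the BE(2)-C value passed, the minimum mean of 6 (0.0442) and the control signal as covariate (0.00027) among them. It also passed without BE(2)-C DMSO replicate 1 (0.0149), and the Kelly value passed without Kelly DMSO replicate 3 (0.0442). Probe set 11754299_a_at read 8.94, 8.69 and 9.34 in BE(2)-C with JQ1, against 8.29, 7.66 and 7.57 with DMSO, and 8.27, 8.25 and 7.53 in Kelly with JQ1, against 7.60, 7.21 and 7.59 with DMSO. It rose 2.22-fold in BE(2)-C (log2 fold change 1.15 with SE 0.26, limma adjusted p = 0.0368), a call lost in 10 of 20 alternatives, and by 0.85 on average (limma adjusted p = 0.0144), a call kept in all 19. The Kelly groups overlapped there, and the Kelly value of 0.55 did not pass (limma adjusted p = 0.263).

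Probe set 11736489_a_at passed only on average (0.81, limma adjusted p = 0.03), which was lost in 9 of 19 alternatives. The set 11736488_a_at was not called (0.49 in BE(2)-C and 0.34 in Kelly, limma adjusted p = 0.452 and 0.421). The last set, 11763312_at, read 6.95, 6.78 and 7.24 in BE(2)-C with JQ1, against 6.65, 6.66 and 6.48 with DMSO. In Kelly it read 6.97, 6.72 and 6.90 with JQ1, against 7.01, 7.13 and 7.04 with DMSO. Its groups separated in opposite directions in the lines, and neither difference passed (0.39 and −0.20 on the log2 scale, limma adjusted p = 0.265 and 0.459).

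**Figure D3:**
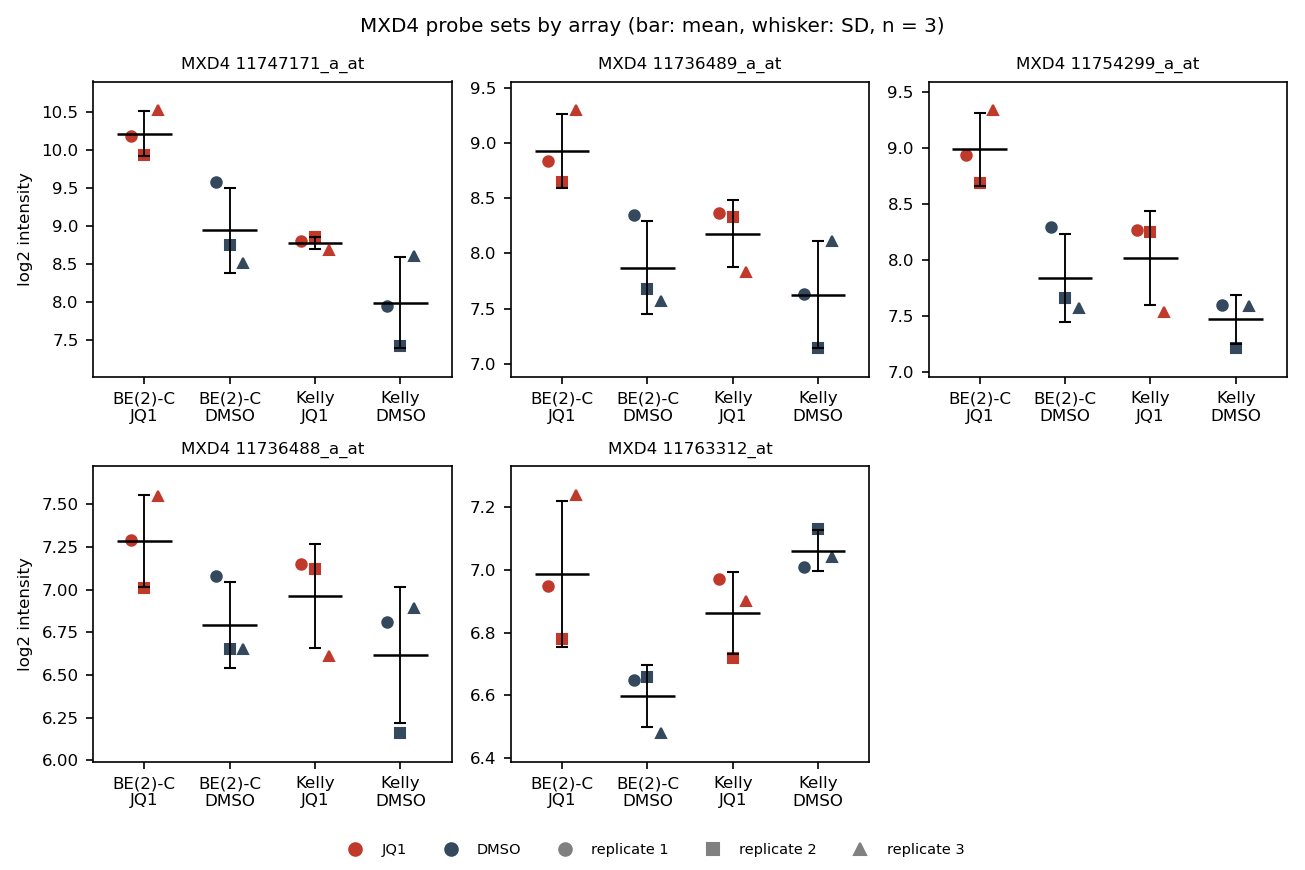
Log2 intensity (vertical axis, scaled to each panel) of the 5 MXD4 probe sets on each of the 12 arrays, by group, with a bar at the mean and a whisker for the SD (n = 3). In BE(2)-C all JQ1 arrays lie above all DMSO arrays in 4 of the 5 sets, and in Kelly in 1 of the 5.

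MXD1, the founding repressor of the group, was not called. Its brighter set 11719249_at read 7.73, 8.05 and 7.31 in BE(2)-C with JQ1, against 5.88, 7.07 and 7.26 with DMSO, and 6.98, 6.69 and 5.86 in Kelly with JQ1, against 6.34, 6.82 and 5.42 with DMSO. The BE(2)-C groups did not overlap (0.96 on the log2 scale, limma adjusted p = 0.382) and the Kelly groups did (0.32, limma adjusted p = 0.683). This set fell by 0.49 for each log2 unit of control signal. With the control signal as a covariate it was called in both lines (1.06 in BE(2)-C, limma adjusted p = 0.000713, and 0.82 in Kelly, 0.00678). The gene mean of MXD1 was higher by 0.37 on average without passing (limma adjusted p = 0.069). It passed with the covariate (0.46, limma adjusted p = 0.000349), without Kelly DMSO replicate 2 (0.0484) and without the 3 arrays of highest control signal (0.25, limma adjusted p = 0.0333).

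MXD3, a repressor family member that is known from proliferating cells, was not called. Its brightest set 11725748_a_at read 7.93, 7.64 and 8.10 in BE(2)-C with JQ1, against 8.39, 7.91 and 7.63 with DMSO, and 8.33, 8.28 and 8.07 in Kelly with JQ1, against 7.47, 7.15 and 7.94 with DMSO. The Kelly groups did not overlap, with JQ1 above (0.71 on the log2 scale, limma adjusted p = 0.125), and the BE(2)-C groups did (−0.09). The Kelly difference was called without Kelly DMSO replicate 3 (0.92, limma adjusted p = 0.034) and without the 3 arrays of highest control signal (0.99, limma adjusted p = 0.00574). The difference between the lines, −0.80, had an unadjusted limma p of 0.0337 and an adjusted p of 0.462. MNT, the widely expressed repressor, had log2 fold changes of −0.12 in BE(2)-C and −0.10 in Kelly as a gene (95% intervals −0.53 to 0.30 and −0.52 to 0.32), and neither passed (limma adjusted p = 1 and 0.752).

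MXI1, the repressor once known as a candidate tumour suppressor, and MLX were the members called between the lines under DMSO in the main fit. Under DMSO 10 of 44 probe sets passed between BE(2)-C and Kelly, 5 lower and 5 higher in BE(2)-C, against 12.3% of all probe sets (6% lower and 6.26% higher). By gene 2 of 10 passed, a share not far from the 14.8% of all genes. Other members passed in some alternatives. The MXD4 set 11747171_a_at (0.95, limma adjusted p = 0.0739) passed with the control signal as covariate (0.000102) and without Kelly DMSO replicate 3 (0.017). It also passed without the 3 arrays of highest control signal (0.0131). MXD1 as a gene (0.39, limma adjusted p = 0.153) passed with that covariate (0.034) and without those 3 arrays (0.0426). All 5 MXI1 sets were lower in BE(2)-C, and 5 of the 6 MLX sets were higher there. As a gene MXI1 read 7.21, 7.45 and 7.57 in BE(2)-C with DMSO, against 8.38, 8.78 and 8.28 in Kelly with DMSO. The means were 7.41 ± 0.185 in BE(2)-C and 8.48 ± 0.264 in Kelly (SD, n = 3 each), and every BE(2)-C array lay below every Kelly array. MXI1 was 2.1-fold lower in BE(2)-C (log2 −1.07, SE 0.16, 95% interval −1.41 to −0.73, limma adjusted p = 0.000446), and the call was kept in all 19 alternatives.

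The MXI1 set with the strongest line contrast, 11739744_x_at, read 7.94, 8.13 and 8.17 in BE(2)-C with DMSO, against 9.21, 9.34 and 9.70 in Kelly with DMSO. That is 2.53-fold lower in BE(2)-C (log2 −1.34, limma adjusted p = 0.000211), in a set whose name marks probes that can bind other transcripts. The brightest set 11730498_s_at read 9.69, 10.38 and 10.31 in BE(2)-C, against 11.32, 11.43 and 10.66 in Kelly, both with DMSO (−1.01, limma adjusted p = 0.0153). All BE(2)-C arrays lay below all Kelly arrays in these sets, which holds for 12% of all probe sets. The sets 11730843_a_at and 11739743_a_at were lower by −1.15 and −1.03 (limma adjusted p = 0.00732 and 0.00292). The dimmest, 11730499_a_at, was lower by −0.82 (limma adjusted p = 0.0467), a call lost in 13 of 17 alternatives, with limma adjusted p up to 0.16. The call of 11730498_s_at was lost without Kelly DMSO replicate 1 or 2 (limma adjusted p = 0.0693 and 0.0593).

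With JQ1 the MXI1 gene mean was 7.41, 7.42 and 7.22 in BE(2)-C, against 7.21, 7.45 and 7.57 with DMSO. In Kelly it was 8.07, 8.12 and 7.90 with JQ1, against 8.38, 8.78 and 8.28 with DMSO. The Kelly groups did not overlap and the BE(2)-C groups did. Neither difference passed (−0.06 in BE(2)-C, 95% interval −0.40 to 0.28, limma adjusted p = 1, and −0.45 in Kelly, −0.79 to −0.11, limma adjusted p = 0.12). The lines were not shown to differ in it (0.39, limma adjusted p = 0.52). Without Kelly DMSO replicate 3 the Kelly differences of 11730498_s_at (−0.83, limma adjusted p = 0.0451) and 11730499_a_at (−1.16, limma adjusted p = 0.0052) passed, and without the 3 arrays of highest control signal the Kelly gene mean did (−0.49, limma adjusted p = 0.0345).

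MLX, the hub that pairs with the glucose-sensing factors, read 9.14, 9.39 and 9.28 in BE(2)-C with DMSO, against 8.71, 8.57 and 8.48 in Kelly with DMSO. All BE(2)-C arrays were higher, in the gene mean and in all 6 probe sets. Of all probe sets, each taken singly, 11.5% were separated in this direction. The difference was 1.61-fold (log2 0.68, SE 0.13, 95% interval 0.40 to 0.97, limma adjusted p = 0.0032) and was called in all 19 alternatives. Its clearest set, 11751207_a_at, read 8.41, 8.69 and 8.45 in BE(2)-C with DMSO, against 7.68, 7.51 and 7.59 in Kelly with DMSO (0.92, limma adjusted p = 0.00114). Sets 11743260_a_at and 11735097_x_at were higher by 0.77 and 0.78 (limma adjusted p = 0.00367 and 0.00821). The name of 11735097_x_at, too, marks probes that can bind other transcripts. Set 11750059_a_at was higher by 0.82 (limma adjusted p = 0.0282), a call lost without Kelly DMSO replicate 2 or 3 (0.0532 and 0.094) or the same replicates of BE(2)-C with DMSO (0.116 and 0.0951). Set 11735096_a_at was higher by 0.65 (limma adjusted p = 0.0445), a call lost in 11 of 18 alternatives. The sixth set, 11735098_a_at, differed by 0.17 (limma adjusted p = 0.631).

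JQ1 moved MLX in neither line beyond the threshold (−0.16 in BE(2)-C, 95% interval −0.44 to 0.13, limma adjusted p = 0.828, and −0.13 in Kelly, −0.41 to 0.16, limma adjusted p = 0.554). Its set 11743260_a_at lay lower with JQ1 on all arrays of both lines, by −0.32 in BE(2)-C and −0.38 in Kelly, without passing (limma adjusted p = 0.396 and 0.174). Its average of −0.35 (limma adjusted p = 0.0625) passed without Kelly DMSO replicate 3 (0.049) or BE(2)-C DMSO replicate 1 (0.0217).

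**Figure D4:**
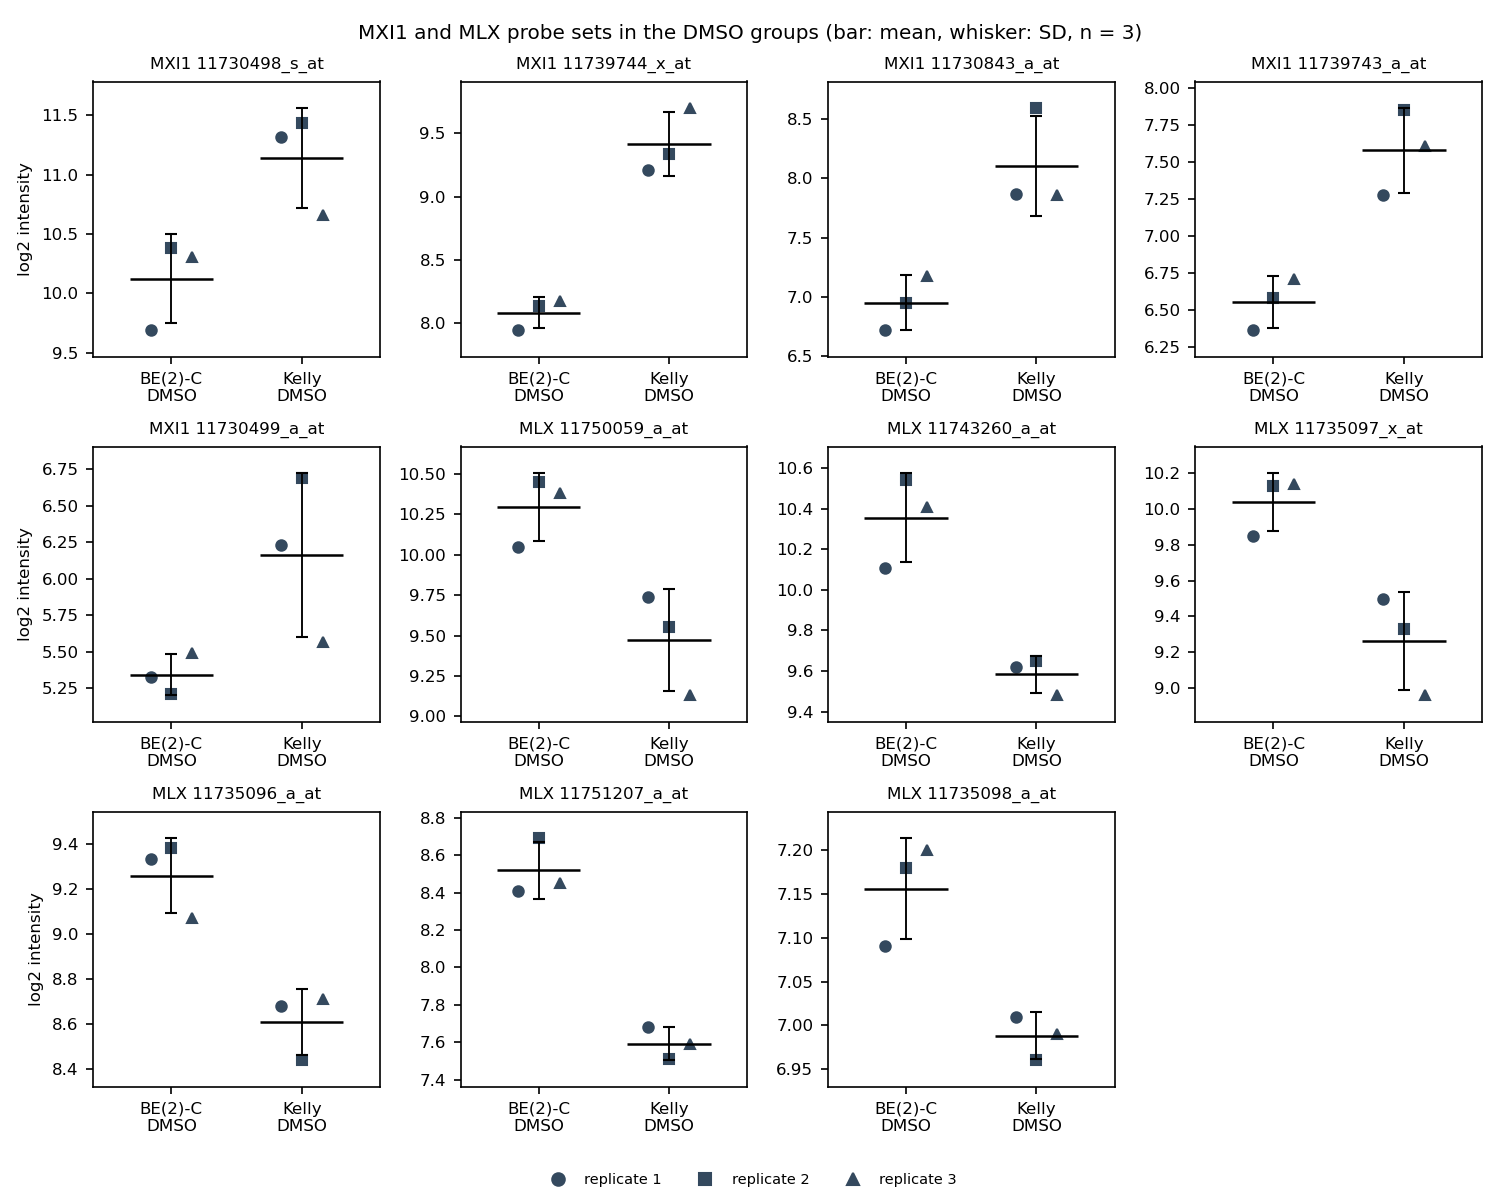
Log2 intensity (vertical axis, scaled to each panel) of the 5 MXI1 and 6 MLX probe sets in BE(2)-C with DMSO (left) and Kelly with DMSO (right), with a bar at the mean and a whisker for the SD (n = 3). BE(2)-C arrays lie below Kelly arrays in the 5 MXI1 sets and above them in the 6 MLX sets.

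Between the lines, the effect of JQ1 on the members themselves was not shown to differ: 0 of 44 probe sets passed in limma's test of the difference, against 0.327% of all probe sets. At the level of genes it was 0 of 10, against 0.546% of all genes. Lists of genes around the network were then read in the same gene fit, without a test of the list.

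Of 5 target genes of MLX with MLXIP or MLXIPL, 2 rose in BE(2)-C (against 2.02% of all genes called higher there), 1 on average (3.47% of all genes) and 0 in Kelly by limma's test. The Kelly number ran from 0 to 2 over the alternatives. The median log2 fold change of the 5 was 0.44 in BE(2)-C and 0.058 in Kelly, against −0.013 and 0.075 over all genes. TXNIP, which binds thioredoxin and limits glucose uptake, read 11.08, 11.16 and 11.21 in BE(2)-C with JQ1, against 8.82, 9.42 and 9.39 with DMSO. In Kelly it read 10.30, 10.11 and 10.01 with JQ1, against 9.72, 9.78 and 9.27 with DMSO. The groups did not overlap in either line. TXNIP rose 3.83-fold in BE(2)-C (log2 fold change 1.94, limma adjusted p = 0.000133), while the Kelly value of 0.55 did not pass (limma adjusted p = 0.11). The Kelly rise did pass with quantile normalization (0.72, limma adjusted p = 0.00296) and with the control signal as covariate (0.71, 0.00338). It also passed without BE(2)-C DMSO replicate 1 (0.0418) and without the 3 arrays of highest control signal (0.0168). The effects differed between the lines (BE(2)-C minus Kelly 1.39, 95% interval 0.82 to 1.95, limma adjusted p = 0.0364).

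ARRDC4, a relative of TXNIP in the arrestin family, was singled out after its values were seen. It read 7.59, 7.85 and 7.41 in BE(2)-C with JQ1, against 6.28, 6.63 and 6.87 with DMSO, and 5.91, 6.07 and 5.69 in Kelly with JQ1, against 6.09, 6.21 and 6.26 with DMSO. The groups separated upwards in BE(2)-C and downwards in Kelly. ARRDC4 rose 2.03-fold in BE(2)-C (1.02, limma adjusted p = 0.00574), and the Kelly value of −0.30 did not pass (limma adjusted p = 0.317). The difference between the lines was 1.32 (95% interval 0.79 to 1.85, limma adjusted p = 0.0339). Both BE(2)-C rises were kept in all 21 alternatives, and both differences between the lines were lost when 1 of most arrays was left out, as given with the further results. KLF10, PFKFB3 and HK2 did not pass in either line.

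**Figure D5:**
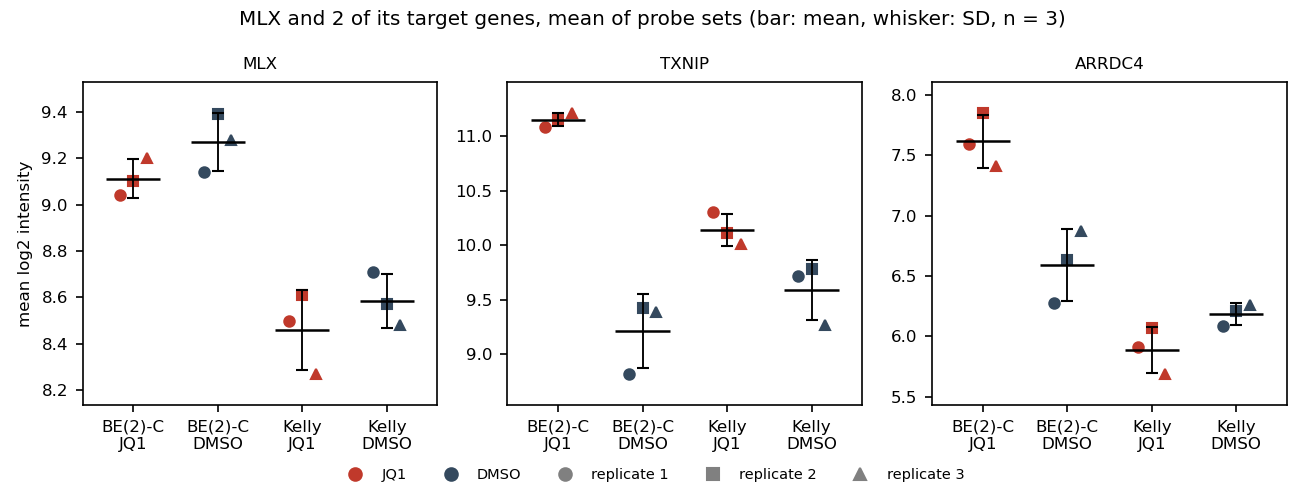
Mean log2 intensity over probe sets (vertical axis, scaled to each panel) of MLX, TXNIP and ARRDC4 on each of the 12 arrays, by group, with a bar at the mean and a whisker for the SD (n = 3). MLX groups overlap within each line, TXNIP lies higher with JQ1 in both lines, and ARRDC4 lies higher with JQ1 in BE(2)-C and lower in Kelly.

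Of 23 genes with E-boxes that MYC or MYCN are known to drive, 21 were measured. In limma's test 0 were called lower within a line, against 2.53% of all genes in BE(2)-C and 4.3% in Kelly, and 3 fell on average, against 6.67% of all genes. With the replicate block MCM7 was called lower in BE(2)-C (limma adjusted p = 0.0379) and PRMT5 in Kelly (0.0334), and 8 genes were called lower on average. Over the alternatives the number called lower ran from 0 to 14 in BE(2)-C and from 0 to 6 in Kelly, with the highest number in each line without the 3 arrays of highest control signal. With 1 array left out it reached 4 in BE(2)-C (without Kelly JQ1 replicate 3) and 4 in Kelly (without Kelly DMSO replicate 3). The list's median log2 fold change was −0.41 in BE(2)-C and −0.31 in Kelly, against −0.01 and 0.08 over all genes. PRMT5, an arginine methyltransferase, fell by 0.65 on the log2 scale on average (limma adjusted p = 0.0108), which was kept in all 20 alternatives. CAD, which starts pyrimidine synthesis, fell by 0.62 (0.0237) and MCM7, a subunit of the replicative helicase, fell by 0.52 (0.0462). CAD was lost in 4 of 20 alternatives and MCM7 in 9 of 20, and the number called lower on average ran from 1 to 16 over the alternatives. It was 1 without DMSO replicate 1 of Kelly or, in BE(2)-C, without JQ1 replicate 1 or 2 or DMSO replicate 2. It was 9 without replicate 3 of Kelly with DMSO or replicate 1 of BE(2)-C with DMSO, and 16 without the 3 arrays of highest control signal, a fit added after the data had been seen. Between the lines under DMSO 1 of the 21 was higher in BE(2)-C, MCM7 (0.96, limma adjusted p = 0.00755), and 4 were lower, against 7.52% and 7.31% of all genes. The 4 were LDHA, the enzyme that makes lactate, at −3.86 (limma adjusted p = 4e-06), MTHFD2, BOP1 and NOP56, named here after their values were seen.

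Factors that set the stability of MYC or MYCN protein formed a list of 11 genes, of which 10 were measured. In BE(2)-C 1 rose and 2 fell, in Kelly 0 rose and 1 fell, and on average 1 rose and 2 fell, where 2.53%, 4.3% and 6.67% of all genes were called lower and 2.02%, 1.4% and 3.47% higher. AURKA, the kinase that binds MYCN protein and shields it from degradation, read 10.02, 10.11 and 10.14 in BE(2)-C with JQ1, against 10.59, 11.12 and 10.86 with DMSO. In Kelly it read 9.85, 9.95 and 9.67 with JQ1, against 10.81, 10.71 and 10.29 with DMSO. The groups did not overlap in either line, and AURKA fell by 0.77 on the log2 scale in BE(2)-C (limma adjusted p = 0.0244) and by 0.78 in Kelly (0.0184). The average fall of 0.77 (limma adjusted p = 0.00138) passed in all 20 alternatives.

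The single-line calls of AURKA were less stable. With 1 BE(2)-C array left out the limma adjusted p in that line was 0.114, 0.0869 and 0.0687 (JQ1 replicates 1, 2 and 3) or 0.119 and 0.0701 (DMSO replicates 2 and 3). With 1 Kelly array left out the p in Kelly was 0.0644 (JQ1 replicate 3) or 0.101 and 0.0802 (DMSO replicates 1 and 2), and it was 0.0728 with the Kelly arrays alone. PLK1, a mitotic kinase known to steady MYC proteins, fell by 0.56 on average (limma adjusted p = 0.00174) and, in BE(2)-C, by 0.74 (0.00599), while the Kelly value of −0.38 did not pass (0.111). GSK3B, the kinase that marks MYC proteins for degradation, rose by 0.49 on average (limma adjusted p = 0.00229) and, in BE(2)-C, by 0.57 (0.0156), and the Kelly value of 0.41 did not pass (0.0618). In Kelly GSK3B did pass with quantile normalization (0.0285), log2(value + 16) (0.0199) and the control signal as covariate (0.0233). Without the 3 arrays of highest control signal both GSK3B (0.0259) and PLK1 (0.0209) passed in Kelly. The BE(2)-C call of GSK3B was lost without JQ1 replicate 1 or 3 of that line (0.0772 and 0.0717), without its DMSO replicate 2 or 3 (0.0751 and 0.0638) and with the brightest probe set (0.0524), and that of PLK1 with the brightest probe set (0.0944). These are transcript levels, and protein was not measured on the arrays.

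Of 14 cofactors that MYC, MXD or MNT proteins recruit, 13 were measured. RUVBL1, an ATPase of chromatin complexes that MYC recruits, was the 1 of 13 called lower on average, a share near the 6.67% of all genes called lower there. It read 10.32, 10.52 and 10.43 in BE(2)-C with JQ1, against 10.81, 11.14 and 11.00 with DMSO, and 10.15, 10.08 and 9.21 in Kelly with JQ1, against 10.59, 10.52 and 10.19 with DMSO. The groups did not overlap in either line, and RUVBL1 fell by 0.59 on average (limma adjusted p = 0.032). Within a line it was not called (0.231 in BE(2)-C and 0.136 in Kelly). It passed in 3 of 21 alternatives in BE(2)-C, 1 of them without Kelly JQ1 replicate 3 (0.0352), and in 2 of 21 in Kelly, 1 of them the replicate block (0.0433). The call was lost in 7 of 20 alternatives, each of them without 1 array. For Kelly the arrays were DMSO replicates 1 and 2 (0.0875 and 0.067), and for BE(2)-C they were JQ1 replicates 1, 2 and 3 (0.085, 0.0558 and 0.0685) and DMSO replicates 2 and 3 (0.0875 and 0.0672). The network kin MGA, MLXIP and MLXIPL gave 0 calls of 3 in limma's test in BE(2)-C, in Kelly and on average, where 4.55%, 5.7% and 10.1% of all genes were called, and the widest average value was that of MLXIPL (0.24, limma adjusted p = 0.597).

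Genes whose levels ran most like MYCN over the 12 arrays were sought among 9115 genes with a mean level of at least 6, by Pearson correlation of gene means. The first 5 were RNASEH2B (r = 0.973), GPATCH4 (0.968), DAZAP1 (0.965), TLE3 (0.965) and PLD6 (0.959). The arrays fall into 4 groups and share their normalization, so these values mostly follow the order of the group means, and they are given as a description. With each line centred on its own mean the first 5 were RAC3 (0.977), RASL10B (0.972), TUB (0.971), RCC1L (0.968) and GPATCH4 (0.967), so that only GPATCH4 stood in both sets. Among the members r with MYCN was −0.863 for MXD4 and −0.799 for MXD1, and −0.818 and −0.728 with the lines centred. It was 0.62 for MXI1 and −0.287 for MLX, and 0.467 and 0.55 with the lines centred. For the repressors MXD3 and MNT it was −0.106 and 0.458, and −0.265 and 0.22 with the lines centred. For MAX, MYC and MYCL it was 0.134, −0.465 and 0.0229, and 0.523, −0.252 and −0.347 with the lines centred.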

How the data were processed

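Total RNA of 12 samples was measured on PrimeView arrays. The deposited values are intensity per probe set on a linear scale, made by the authors with RMA per the submitters' processing notes (background correction, normalization between arrays and summary of probes). Its version is not stated in the sources at hand. Tests had been planned on log2 values, so log2 of the deposited intensity was taken, with no offset or filter. RMA evens out the arrays, so a shift of total RNA between groups would not be seen. Of 49395 probe sets, 102 controls, 1832 naming several genes and 2473 naming none were left out, and 99.9% of the rest matched the RefSeq gene table. A gene's level is the mean over its probe sets.

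Group means over all 12 arrays were fitted with limma (version 3.58.1, under R version 4.3.3; lmFit, contrasts.fit and eBayes), once for the 44988 probe sets and once for the 18132 genes. P-values are two-sided, with Benjamini-Hochberg adjustment over the whole table. JQ1 minus DMSO was taken within BE(2)-C and within Kelly. The mean of these effects, the BE(2)-C effect minus the Kelly effect, and BE(2)-C minus Kelly under DMSO were taken as further contrasts. Intervals are at 95%, and the number of arrays limits their precision. The fit was also run on simulated data with changes added to Kelly with JQ1 only. Its outcome is not given here and is not used as support.

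The members and lists were chosen with earlier results of these data known. Named genes were every member, up to 3 called genes of each list with the widest average JQ1 effect or the widest 1 where none was called, and the 5 genes most like MYCN. The replicate numbers are those of the sample titles. Deviations from the group means of same-numbered JQ1 and DMSO arrays correlated at 0.42, 0.227 and 0.509 in Kelly, which by the rule used here pairs them, and at −0.0354, 0.537 and −0.749 in BE(2)-C, which does not. These are correlations across probe sets, which are not independent replicates. The main fit left the Kelly pairing out, and the replicate block is given among the alternatives. With the block the Kelly call of MYCN as a gene was lost (limma adjusted p = 0.0778).

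Alternatives were quantile normalization, a trended and robust prior, a minimum mean of 6, log2(value + 16), the replicate block, each line alone, the control signal as covariate, the brightest probe set of each gene, each array left out and, added after the data had been seen, the 3 arrays of highest control signal left out.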

Additional observations from a re-analysis of the deposited data

Results flagged for a closer look

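TXNIP and ARRDC4, targets of MLX with its glucose-sensing partners, responded to JQ1 differently in the lines by limma's test of the difference. The difference of the log2 fold changes, BE(2)-C minus Kelly, was 1.39 for TXNIP (1.94 in BE(2)-C and 0.55 in Kelly, limma adjusted p = 0.0364) and 1.32 for ARRDC4 (1.02 in BE(2)-C and −0.30 in Kelly, limma adjusted p = 0.0339). JQ1 arrays lay above DMSO arrays in BE(2)-C for both genes, and in Kelly they lay above for TXNIP and below for ARRDC4.

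The TXNIP difference did not pass with the trended and robust prior (limma adjusted p = 0.0544) or the brightest probe set (0.128). With 1 BE(2)-C array left out it did not pass for JQ1 replicates 1, 2 and 3 (0.109, 0.112 and 0.108) and DMSO replicates 2 and 3 (0.0612 and 0.0583). With 1 Kelly array left out it did not pass for JQ1 replicates 1, 2 and 3 (0.0596, 0.105 and 0.0901) and DMSO replicates 1 and 2 (0.136 and 0.0943). The ARRDC4 difference did not pass with the replicate block (0.0779). The BE(2)-C arrays without which it did not pass were JQ1 replicates 1, 2 and 3 (0.111, 0.112 and 0.0512) and DMSO replicate 2 (0.0944). The Kelly arrays were JQ1 replicates 1, 2 and 3 (0.0706, 0.0651 and 0.0754) and DMSO replicates 1 and 2 (0.0907 and 0.08). The cause of either difference was not tested.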

How the results depend on the processing

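Over the results and alternatives run, 6361 values were compared, counts of calls included. Of these 152 lost a call, 135 gained one and 0 turned direction past the threshold. Such a turn needs opposite calls in the main fit and the alternative, and a count has no direction, so the 0 says little about stability. The number of the 44 probe sets called in Kelly, 0 as reported, was 1 with quantile normalization, 1 with the trended and robust prior, 1 with the minimum mean of 6, 3 with log2(value + 16), 1 with the replicate block, 4 with the control signal as covariate, 11 without the 3 arrays of highest control signal, and 0 to 7 with 1 array left out, the 7 without Kelly DMSO replicate 3. In BE(2)-C, 3 as reported, it was 6 with the covariate, 6 without those 3 arrays, 2 with the replicate block, 2 with quantile normalization (0 higher and 2 lower, against 1 and 2 as reported) and 1 to 5 with 1 array left out. On average, 6 as reported, it was 17 without those 3 arrays, 4 with the block and 4 to 9 with 1 array left out. Between the lines under DMSO, 10 as reported, it was 13 with the covariate, 11 with log2(value + 16) and 11 without those 3 arrays. It was 8 with quantile normalization and 7 to 9 with 1 array left out.

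Of the 10 genes, the number called in Kelly, 1 as reported, was 0 with the replicate block, 0 with the Kelly arrays alone, 0 with the brightest probe set, 2 with the covariate, 4 without those 3 arrays, and 0 to 1 with 1 array left out. In BE(2)-C, 2 as reported, it was 1 each with quantile normalization, the trended and robust prior, the block, the BE(2)-C arrays alone and the brightest probe set, and 1 to 2 with 1 array left out. On average, 2 as reported, it was 6 without those 3 arrays, 2 with the block and 1 to 3 with 1 array left out. Between the lines under DMSO, 2 as reported, it was 3 with the covariate, 3 without those 3 arrays and 2 with any 1 array left out. For the line difference of the JQ1 effect it was 0 in every alternative, for probe sets and genes. The cause of the moved counts was not tested. Sets near the background level, among them those of MYC and MYCL and the dimmest sets of MAX, MXD1 and MXD3, limit what a change there could show. With the 3 arrays left out, both Kelly groups and the DMSO group of BE(2)-C hold 2 arrays each.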
